A study of Rattus norvegicus with 6 samples.

Results

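Splicing removes introns from pre-mRNA in the spliceosome, a machine built from small nuclear ribonucleoproteins (snRNPs) and many further proteins. The genes described here encode 4 families of that machinery in Rat-1 cells, an established line of rat fibroblasts. They were chosen by symbol alone, as every entry that begins with Hnrnp, with Srsf and a digit, with Sf3a or Sf3b and a digit, or with Snrp. This gave 46 of the 17143 genes in the table (16 Hnrnp, 11 Srsf, 8 Sf3 and 11 Snrp genes), and no pair of them carried identical values. Cells that adhered were lysed 4 h after 25000 per well had been seeded on native extracellular matrix (2 libraries), on matrix degraded by matrix metalloproteinase MMP1 (the MMP1 matrix, 2 libraries) or on matrix degraded by MMP13 (the MMP13 matrix, 2 libraries). Both enzymes are secreted collagenases, and the native matrix was the control. The labels call the libraries duplicates without saying that they came from separate cultures, so the p-values rest on a spread that may be technical alone. The comparisons ask whether fibroblasts express these genes differently on a degraded matrix.

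The families act at different steps. Sm proteins (here Snrpb, Snrpd1, Snrpd2, Snrpe, Snrpf, Snrpg) form the ring around the spliceosomal RNAs. Snrpd3, a further ring gene, is not among the members. Snrpa and Snrpc belong to the snRNP that reads the 5' splice site, and Snrpa1 and Snrpb2 to the snRNP that binds the branch point. SF3a and SF3b subunits are parts of the branch point complex. SR proteins (Srsf genes) bind exons and mostly favour their inclusion, and hnRNPs coat nascent transcripts and often oppose inclusion. Many SR and hnRNP genes limit their own transcript level by splicing in exons that lead to decay. The libraries counted 3' ends of transcripts, so they report the level of each gene's mRNA and not how any transcript was spliced.

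Levels are given in units, meaning reads after the authors' division by a size factor of that library. One end is counted per transcript, so levels of different genes were compared without division by length. Library depth ran from 161817 to 362122 recovered reads, and 1 read was worth between 0.735 and 1.68 units. A value of 0 could therefore hide up to 3 reads, which is 2.21 units in the deepest and 5.04 units in the shallowest library, counting error alone considered. The fibroblast identity of the cells was read from the summed shares of marker lists. Together the 8 fibroblast markers (Col1a1, Col1a2, Col3a1, Vim, Fn1, Lgals1, S100a4 and P4hb) took 2.77% to 3.05% of reads. The summed share of any list of leukocyte, endothelial, epithelial, muscle or erythroid markers reached no more than 0.00978% in a library, and Epcam and Alas2 had no read. The ribosomal RNA entry Rn45s took 0.293% to 0.347% of reads in native libraries and 0.661% to 0.968% in the others; its part in the values below was not tested. In bulk libraries, fewer cells of a type and less RNA per cell cannot be told apart.

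No member of the 4 families passed the test in any comparison. By limma with an intensity trend, 0 of 43 tested members had an adjusted p under 0.05 for MMP1 against native matrix, where 0.151% of all tested genes did. The same count was 0 of 43 for MMP13 against native matrix (0.412% of all tested genes) and 0 of 43 for the MMP13 against the MMP1 matrix (0.0412%). The smallest adjusted p of a member was 0.347, 0.129 and 0.798 in these comparisons. Both comparisons with native matrix use the same 2 native libraries. At an unadjusted p under 0.05 the counts were 2, 2 and 3 members, that is 4.65%, 4.65% and 6.98% of them, against 8.24%, 8.05% and 5.22% of all tested genes. EdgeR called 0 of 42 members in each comparison, where it called 0.219%, 0.7% and 0.0437% of all genes. Its unadjusted p was under 0.05 for 2, 2 and 3 members, against 433, 434 and 199 of the 4574 genes edgeR tested. DESeq2 called 0 members in each, where it called 0.00679%, 3.03% and 0.00679% of the genes it adjusted over. By DESeq2 0, 0 and 0 of 43 members had an unadjusted p under 0.05, against 317, 297 and 126 of the 7284 tested genes. With calls this rare over the whole table, a count of 0 among 43 genes is near the background.

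How much change the libraries could have hidden differed with level. The 95% interval of the log2 fold lay wholly inside a 2-fold change either way for 25 of 43 members on the MMP1 matrix, 18 of 43 on the MMP13 matrix and 23 of 43 between the treated matrices. Over all tested genes these shares were 18.7%, 18.5% and 21.2%. The members are well-expressed genes: 39 of 43 had a mean level above the median of tested genes (13.3 units), and 10 reached 100 units. These intervals take their error from genes of like level and not from the gene's own libraries. For 20 of 43 members the gene's own residual SD exceeded that pooled SD, against 38.9% of all tested genes, so the intervals of those 20 may be too narrow. The median replicate difference among members was 0.34 log2 units on native, 0.33 on MMP1 and 0.42 on the MMP13 matrix. The median absolute log2 fold among members was 0.27, 0.35 and 0.28 in the 3 comparisons, beside 0.43, 0.42 and 0.37 over all tested genes.

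**Figure D1:**
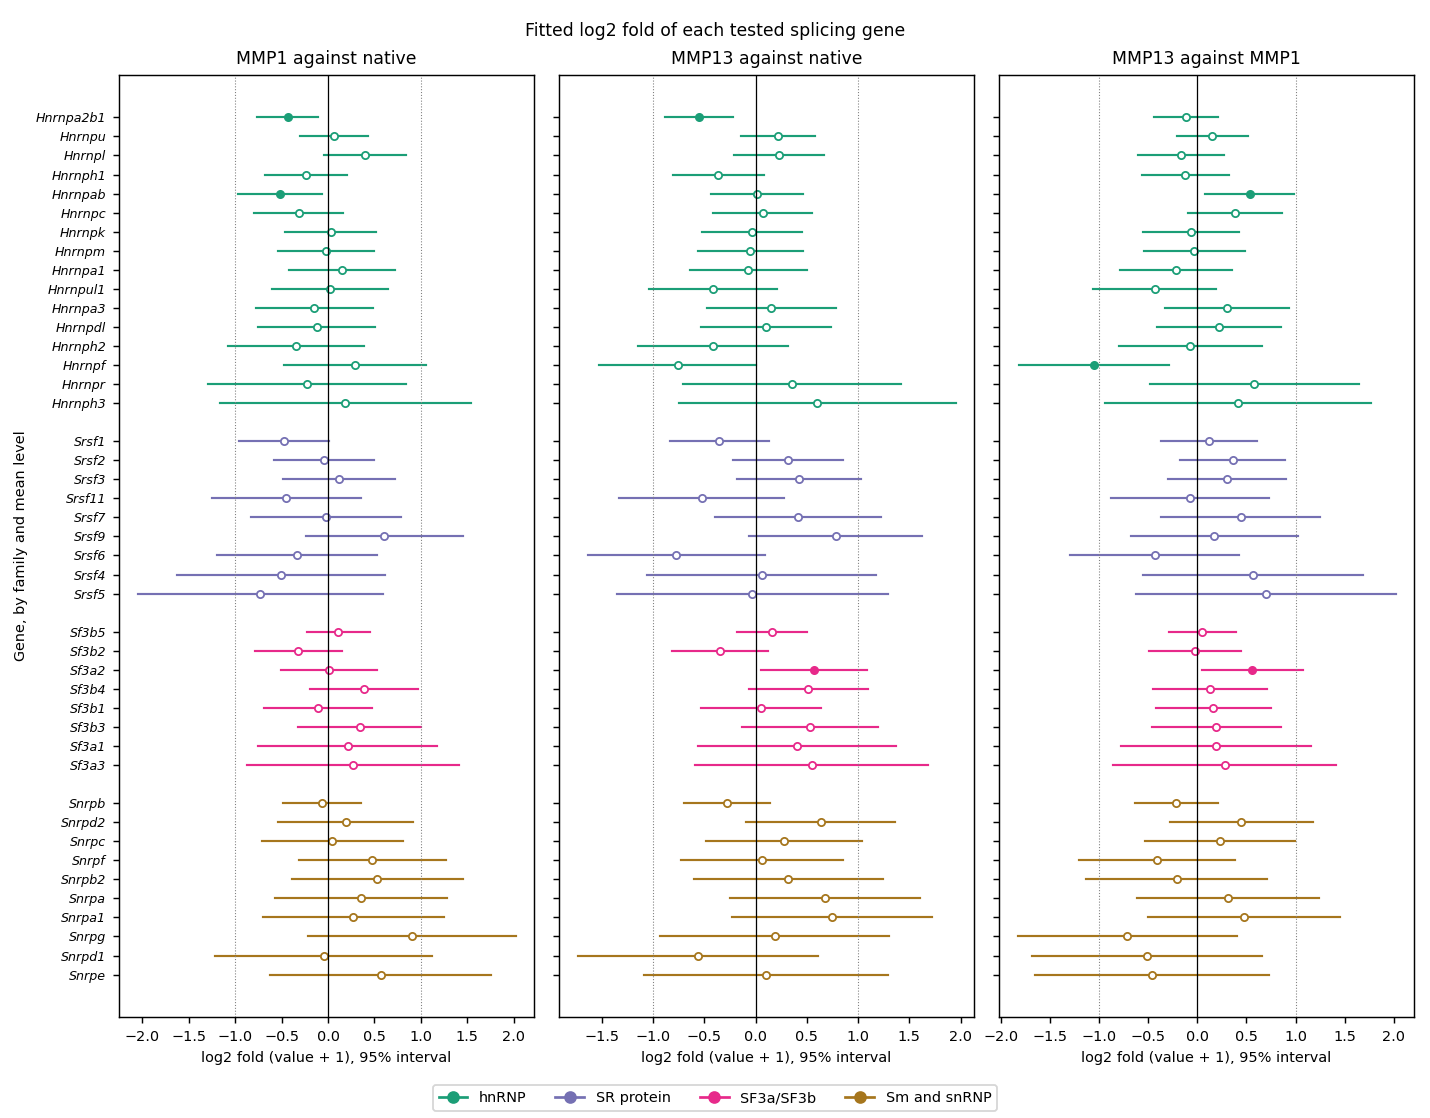
Fitted log2 fold of value + 1 for the 43 tested splicing genes (x axis) in each comparison, grouped by family and ordered by mean level, with the 95% interval taken from the pooled spread; filled points have an unadjusted p under 0.05 and dotted lines mark a 2-fold change. Intervals widen towards genes of low level, and no gene had an adjusted p under 0.05.

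Members whose 2 libraries of a matrix lay all above or all below those of the other were counted beside the same over all tested genes. On the MMP1 matrix 6 of 43 members lay wholly above native and 4 wholly below (14.0% and 9.30%, against 19.6% and 18.8% of all tested genes). On the MMP13 matrix the counts were 9 and 7 (20.9% and 16.3%, against 18.9% and 18.6%), and for the MMP13 against the MMP1 matrix 10 and 7 (23.3% and 16.3%, against 15.9% and 15.4%). Counts above and below were also taken per family, in the order Hnrnp (16 genes), Srsf (9), Sf3 (8) and Snrp (10). They were 3 and 1, 0 and 2, 1 and 1, and 2 and 0 on the MMP1 matrix. On the MMP13 matrix they were 2 and 3, 2 and 3, 3 and 0, and 2 and 1. Between the treated matrices they were 5 and 4, 4 and 0, 1 and 0, and 0 and 3. The median log2 fold of all members was 0.02, 0.10 and 0.15 in these 3 comparisons, beside 0.02, 0.01 and -0.00 over all tested genes.

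The 4 members with an unadjusted p under 0.05 in any comparison were Hnrnpa2b1, Hnrnpab, Hnrnpf and Sf3a2, and the DNA before their start sites is shown here because they are the genes on which the closest results turn. Each line gives the 250 bases before the RefSeq start site on build GRCr8, 5' to 3' on the gene's strand, with 5 short words in capitals on either strand: CCAAT, the ETS word CCGGAAG, the NRF1 word (GCGC, any 2 bases and GCGC again), the SP word GGGCGG and the TATA word TATAAA. The windows are chr4:81875887-81876136 on the minus strand for Hnrnpa2b1, chr10:36363899-36364148 on the minus strand for Hnrnpab, chr4:152755418-152755667 on the plus strand for Hnrnpf, chr7:9566206-9566455 on the minus strand for Sf3a2. Hnrnpf has 3 start sites in the table and the first is printed. No words overlap each other in the windows shown.
Hnrnpa2b1: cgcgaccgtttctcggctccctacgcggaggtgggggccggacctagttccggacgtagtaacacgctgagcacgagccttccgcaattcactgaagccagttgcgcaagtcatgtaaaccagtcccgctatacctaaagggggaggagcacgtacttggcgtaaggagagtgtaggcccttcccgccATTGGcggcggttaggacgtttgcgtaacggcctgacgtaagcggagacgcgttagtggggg
Hnrnpab: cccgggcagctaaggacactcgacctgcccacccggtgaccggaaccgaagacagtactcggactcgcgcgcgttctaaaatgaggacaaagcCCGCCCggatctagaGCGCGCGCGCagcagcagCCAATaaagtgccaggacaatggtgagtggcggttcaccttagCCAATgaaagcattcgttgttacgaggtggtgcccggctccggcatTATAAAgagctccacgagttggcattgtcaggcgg
Hnrnpf: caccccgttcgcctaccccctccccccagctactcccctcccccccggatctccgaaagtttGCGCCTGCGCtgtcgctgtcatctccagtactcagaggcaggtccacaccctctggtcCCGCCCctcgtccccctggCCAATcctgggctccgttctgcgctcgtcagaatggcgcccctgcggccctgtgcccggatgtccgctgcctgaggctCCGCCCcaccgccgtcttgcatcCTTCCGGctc
Sf3a2: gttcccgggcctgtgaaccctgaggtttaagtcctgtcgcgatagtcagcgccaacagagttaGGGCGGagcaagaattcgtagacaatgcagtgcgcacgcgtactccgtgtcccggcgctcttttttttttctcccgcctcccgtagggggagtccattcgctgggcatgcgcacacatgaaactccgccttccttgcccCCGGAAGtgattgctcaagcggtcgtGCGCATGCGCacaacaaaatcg
No word was found in all 4 of these windows. CCAAT stands in those of Hnrnpa2b1, Hnrnpab and Hnrnpf, and the ETS word in those of Hnrnpf and Sf3a2. The NRF1 and SP words each stand in those of Hnrnpab, Hnrnpf and Sf3a2, and the TATA word in that of Hnrnpab. Of the Hnrnpf windows not printed, neither holds the NRF1 word, the second lacks the SP word and the third lacks CCAAT.

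Over the whole set, RefSeq held 49 such windows for 45 of the 46 members (Sf3b2 has no entry). They were rich in CpG, with a median of 18 CpG in 250 bases against 5 over all 33469 windows and 17 over the 5837 windows of tested genes. The SP word stood in 57.1% of member windows, 61.4% of windows of tested genes and 30.5% of all windows. The NRF1 word was found in 30.6% of member windows, 12.6% of windows of tested genes and 4.80% of all windows, and the ETS word in 28.6%, 17.4% and 7.27%. CCAAT, found in 51.0% of member windows against 36.2% and 34.0%, was unevenly spread, at 14 of 19 Hnrnp windows and 1 of 7 Sf3 windows. The other words were uneven too. The SP word stood in 2 of 11 Snrp and 9 of 12 Srsf windows, and the NRF1 word in 1 of 11 and 6 of 12. For the ETS word it was 5 of 11 Snrp and 3 of 19 Hnrnp windows, these 3 being the start sites of Hnrnpf. TATAAA stood in 12.2% of member windows, 6.46% of windows of tested genes and 12.9% of all windows. The word TGANTCA (N being any base) is a loose form of the site bound by AP-1 of the early response. It stood in 1 of 49 member windows (2.04%), 4.76% of windows of tested genes and 6.34% of all windows. A word in a window is a description of its letters and not a binding site.

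The hnRNP family was the most abundant, with 0.502% to 0.636% of reads per library, and all of its 16 genes were tested. Their mean levels ran from 9.25 units for Hnrnph3 to 284.6 for Hnrnpa2b1. Relative to native matrix, 7 of 16 had a positive fold on the MMP1 matrix (median log2 fold -0.07) and 8 of 16 on the MMP13 matrix (median -0.01), beside medians of 0.02 and 0.01 over all tested genes. The Hnrnp median changed sign in some alternatives of each comparison, so it gives no direction. Between the treated matrices it was -0.05.

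Hnrnpa2b1 encodes hnRNP A2/B1, an abundant packaging protein that also sorts RNAs for transport and for export in vesicles. Its level was 463 and 259 units on native matrix (replicates 1 and 2 in this order throughout), 286 and 228 with MMP1 and 239.7 and 232 with MMP13. Native replicate 1 stood above all other libraries, and the other native library lay between the MMP1 libraries and above both MMP13 libraries. The log2 fold was -0.44 (SE 0.17, unadjusted p = 0.00913, adjusted p = 0.347 by limma) on the MMP1 matrix and -0.55 (SE 0.17, unadjusted p = 9.7e-04, adjusted p = 0.129) on the MMP13 matrix. Its own residual SD of 0.37 was above the pooled SD of 0.17 that the test used. Without native replicate 1 the log2 folds were -0.02 and -0.13. Without native replicate 2 they were -0.86 (adjusted p = 0.0283) and -0.97 (adjusted p = 0.00428), the only calls of a member under any of the 18 alternatives. By edgeR the adjusted p was 0.214 and 0.0577. The lower level on degraded matrix thus rested on native replicate 1.

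Hnrnpab, which encodes an hnRNP that binds AU-rich RNA and single-stranded DNA, differed in another pattern. It had 146 and 125 units on native matrix, 81.8 and 108 with MMP1 and 129 and 144 with MMP13. Both MMP1 libraries lay below the other 4. The log2 fold was -0.52 (SE 0.23, adjusted p = 0.482) for MMP1 against native and 0.53 (SE 0.23, adjusted p = 0.823) for MMP13 against MMP1. Hnrnpf, whose protein binds runs of G near splice sites, had 32.8 and 40.8 units on native matrix, 51.1 and 39.6 with MMP1 and 33.1 and 13.4 with MMP13. The low value of MMP13 replicate 2 came from 8 reads, and the log2 fold between the treated matrices of -1.05 (SE 0.39, adjusted p = 0.798) was -0.43 without that library.

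**Figure D2:**
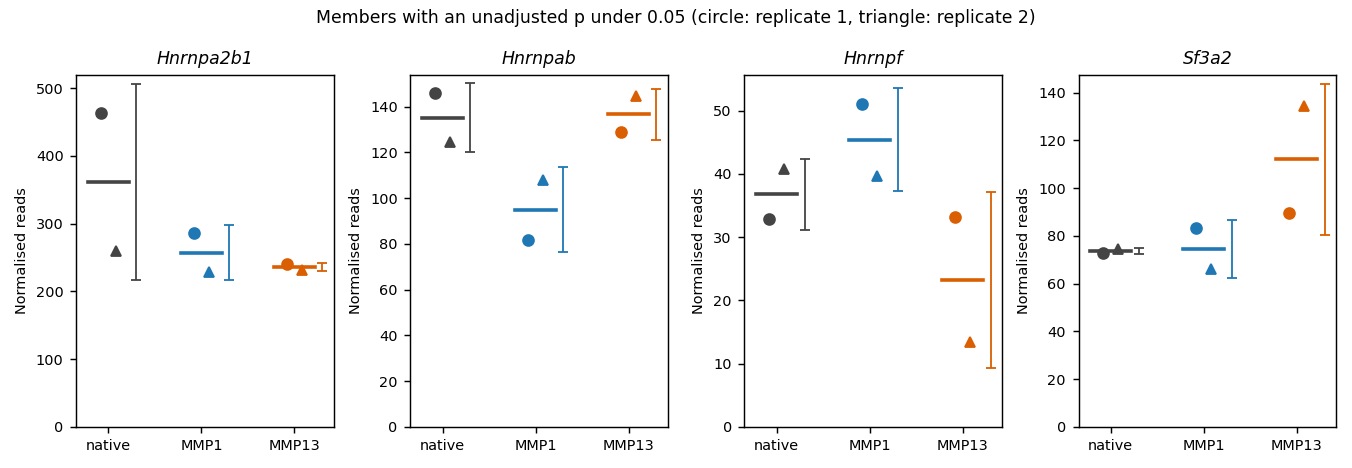
Normalised reads (y axis, from 0) of the 4 members with an unadjusted p under 0.05 in any comparison, by matrix; points are libraries, thick lines group means and bars 1 SD (n = 2). Native replicate 1 of Hnrnpa2b1 (463 units) stands above all its other libraries, and both MMP1 libraries of Hnrnpab (81.8 and 108 units) lie below the other 4.

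Native replicate 1 was also the highest library of Hnrnph1, a reader of G runs, at 184 units beside 116 in the other native library, 127 and 120.0 with MMP1 and 118 and 109 with MMP13. It was likewise highest for Hnrnpc, whose protein coats long transcripts, at 131 beside 87.5 units, 101 and 73.2 with MMP1 and 104 and 121 with MMP13. The summed Hnrnp share was 0.636% in that library and between 0.502% and 0.561% in the other 5. Hnrnpa2b1 alone held 381 of the 1397 Hnrnp reads of native replicate 1, beside 343 of 1942 in native replicate 2. The higher summed share thus leaned on that gene and is not a trait of the family. Hnrnph1 and Hnrnpc were singled out after their values were seen. Among the hnRNP genes, native replicate 1 was highest for Hnrnpa2b1, Hnrnph1, Hnrnpc, Hnrnpab and Hnrnph2, and for no other. For Hnrnpab the lead was narrow, at 145.9 units beside 144.4 in MMP13 replicate 2. How often that library was highest over all tested genes was not computed, so the list has no background to be read against.

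Hnrnpu and Hnrnpl were not highest in that library. Hnrnpu, whose protein attaches chromatin to nuclear RNA, had 181 and 209.8 units on native matrix, 206 and 202 with MMP1 and 245 and 209.9 with MMP13, with log2 folds against native of 0.06 (95% interval -0.30 to 0.43) and 0.22 (-0.15 to 0.58). Both MMP13 libraries lay above both native ones, though the second libraries of the groups were nearly equal. Hnrnpl, a reader of CA-rich RNA, had 90.0 and 136 units on native matrix, 147 and 144 with MMP1 and 140.5 and 119 with MMP13. Its log2 fold of 0.40 on the MMP1 matrix (adjusted p = 0.666) was 0.10 without native replicate 1. For Hnrnpk the intervals were -0.46 to 0.52 and -0.53 to 0.45, and for Hnrnpm -0.54 to 0.49 and -0.57 to 0.46, on the MMP1 and MMP13 matrices. Hnrnpa1 (mean 66.7 units) has 51 pseudogene entries in the RefSeq table, and reads shared with such copies may have been lost or assigned elsewhere, so its level is uncertain. In all, 25 of the 46 members have such an entry, and 19 overlap the span of another gene, including Hnrnpab and Phykpl, and Sf3a2 and Plekhj1. Strand use is not given in the sources used here, so reads of overlapping pairs cannot be told apart.

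**Figure D3:**
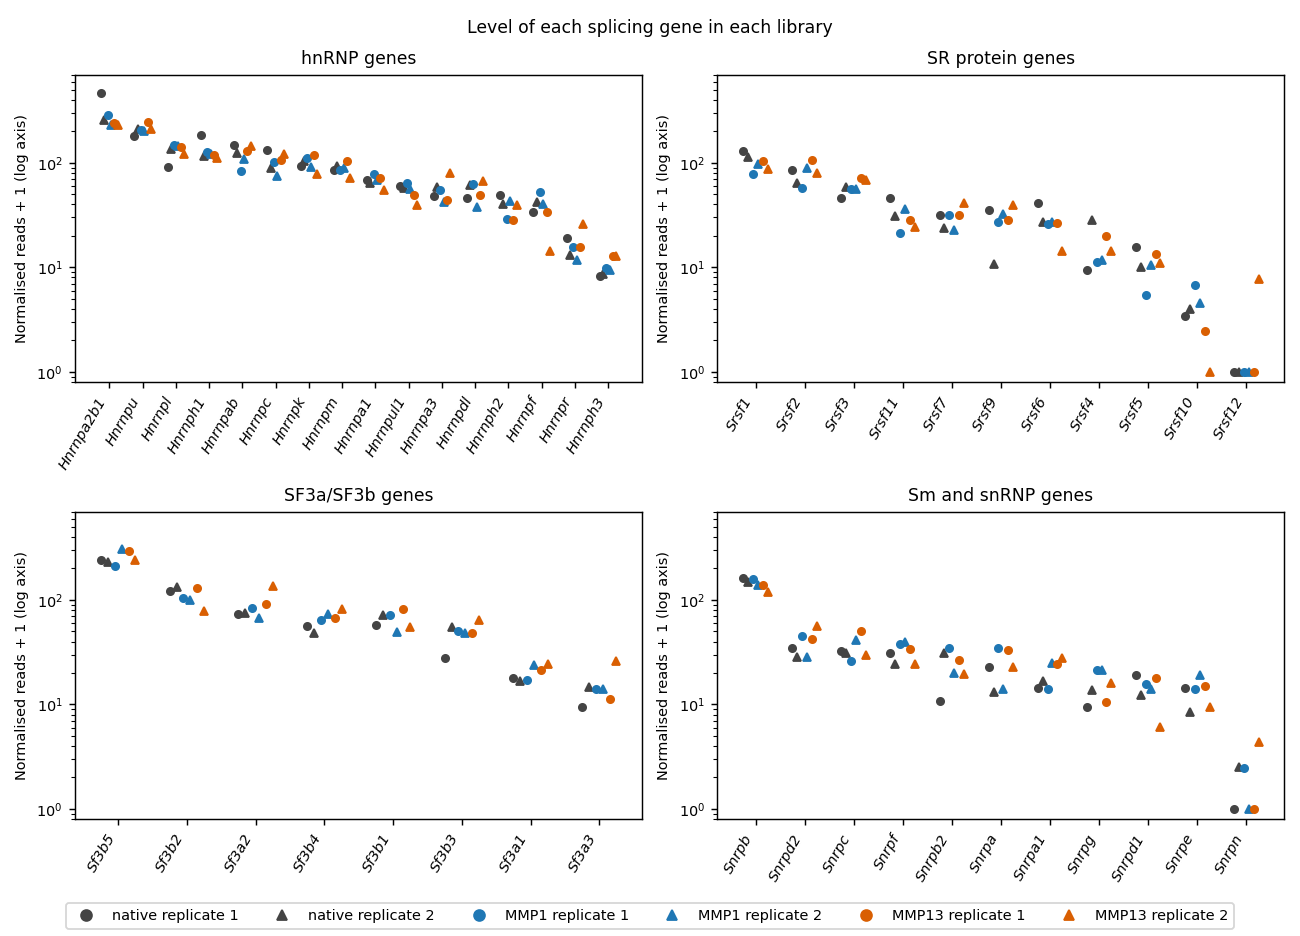
Normalised reads + 1 (log axis) of all 46 members in each of the 6 libraries, by family and ordered by mean level; colour gives the matrix and shape the replicate. Hnrnpa2b1 and Sf3b5 have the highest levels (means of 284.6 and 253 units), and Srsf10, Srsf12 and Snrpn lie at or under a few reads.

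SR protein genes took 0.116% to 0.162% of reads, and 9 of 11 were tested. Srsf10 had 0 to 5.84 units and Srsf12 4 reads, all in MMP13 replicate 2, so neither passed the filter on low values. On the MMP1 matrix 2 of 9 tested genes had a positive fold and 7 a negative one, with a median log2 fold of -0.34; this median was negative in all 18 alternatives, from -0.39 to -0.05 (the latter without native replicate 1), and 0 of the 9 passed the test. On the MMP13 matrix 5 of 9 were positive, with a median of 0.06 whose sign turned in 4 alternatives. The median between the MMP13 and the MMP1 matrix was 0.30, from 0.06 to 0.34 over the alternatives, with the lowest value without MMP1 replicate 1.

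Srsf1, the founding SR protein and a splicing activator, was the most abundant at 129 and 113 units on native matrix, 77.4 and 97.2 with MMP1 and 104 and 85.6 with MMP13. Both native libraries lay above the other 4. The log2 fold was -0.47 (SE 0.25, adjusted p = 0.632) and -0.35 (SE 0.25, adjusted p = 0.774) against native. Srsf2, which helps define exons and acts in transcription elongation, had 83.9 and 63.4 units on native matrix, 57.0 and 87.6 with MMP1 and 105 and 78.9 with MMP13, and its groups overlapped in all 3 comparisons. Srsf3, the smallest SR protein, had 45.0 and 57.4 units on native matrix, 55.5 and 55.2 with MMP1 and 69.9 and 67.2 with MMP13. The MMP13 libraries of Srsf3 lay above all others, with a log2 fold of 0.42 against native (95% interval -0.18 to 1.03, adjusted p = 0.781).

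Of the less abundant SR genes, Srsf6 had 40.1 and 26.4 units on native matrix, 24.8 and 26.4 with MMP1 and 25.7 and 13.4 with MMP13. Its log2 fold of -0.77 on the MMP13 matrix (adjusted p = 0.673) was -0.33 without MMP13 replicate 2, in which it had 8 reads. Srsf9 had 34.0 and 9.81 units on native matrix, 26.3 and 31.2 with MMP1 and 27.2 and 38.6 with MMP13. The second native library stood apart, and the log2 fold of 0.78 on the MMP13 matrix (adjusted p = 0.665) was -0.07 without it. Srsf7, a shuttling SR protein with a zinc knuckle, had 30.4 and 22.6 units on native matrix, 30.7 and 21.6 with MMP1 and 30.9 and 40.3 with MMP13, with log2 folds of -0.03 and 0.41 against native. The remaining Srsf4, Srsf5 and Srsf11 had mean levels of 14.9, 10.0 and 30.2 units and adjusted p of at least 0.809 against native.

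SF3a and SF3b genes took 0.225% to 0.276% of reads, and all 8 were tested. On the MMP13 matrix 7 of 8 had a positive fold against native, with a median log2 fold of 0.46 that ran from 0.21 to 0.57 over the 18 alternatives, being 0.21 without native replicate 1 and 0.31 without MMP13 replicate 2; 0 of the 8 passed the test and 3 (37.5%) had MMP13 libraries wholly above native, beside 18.9% of all tested genes. Such a share was not particular to this family. Between the treated matrices 4 of 9 SR genes (44.4%) lay wholly above with MMP13, beside 15.9% of all tested genes. On the MMP1 matrix 6 of 8 SF3a and SF3b genes were positive, with a median of 0.16 that was -0.03 without native replicate 1. Their summed share of reads was 0.225% and 0.243% with native matrix, 0.228% and 0.250% with MMP1 and 0.276% and 0.256% with MMP13. Both MMP13 libraries were the highest of the 6, the second of them close to the second MMP1 library. Sf3a2 held 80 of the 415 family reads in MMP13 replicate 2. It held 55 of 562 in MMP1 replicate 2 and 99 of 846 in native replicate 2. The place of MMP13 replicate 2 thus leaned on that gene. This share was given no test.

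**Figure D4:**
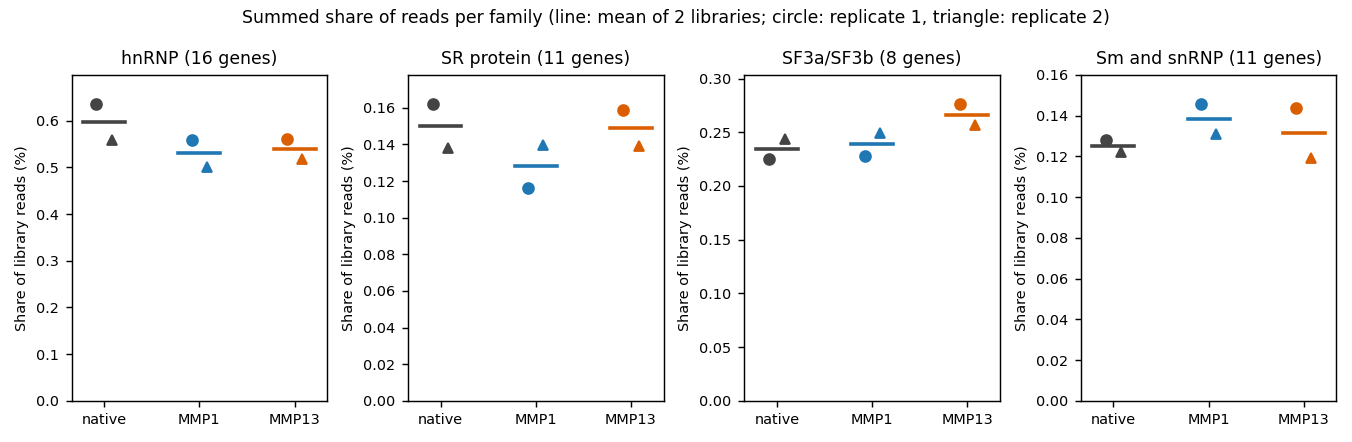
Share of library reads (%, y axis from 0) summed over the genes of each family, by matrix; points are libraries and lines the means of 2 libraries. The SF3a/SF3b share was highest in both MMP13 libraries (0.276% and 0.256%), and the 3 groups overlap in the SR protein panel. Sf3a2 held 80 of the 415 SF3a/SF3b reads in MMP13 replicate 2.

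Sf3a2, a subunit that joins SF3a to the branch point snRNP, had 72.9 and 74.7 units on native matrix, 83.2 and 66.0 with MMP1 and 89.7 and 134 with MMP13. Both MMP13 libraries lay above the other 4. The log2 fold was 0.57 (SE 0.26, adjusted p = 0.544) against native and 0.56 (SE 0.26, adjusted p = 0.896) against the MMP1 matrix, and against native it was 0.28 without MMP13 replicate 2. Sf3b4, which encodes a subunit with RNA recognition motifs, had 55.9 and 46.8 units on native matrix, 62.8 and 72.0 with MMP1 and 66.9 and 80.6 with MMP13. The native libraries were the lowest of Sf3b4, and its log2 folds were 0.39 (adjusted p = 0.769) and 0.51 (adjusted p = 0.688). Sf3b3, a large scaffold subunit, had 26.7 and 53.6 units on native matrix, 49.6 and 46.8 with MMP1 and 47.8 and 63.8 with MMP13; its log2 fold of 0.53 on the MMP13 matrix (adjusted p = 0.739) was 0.04 without native replicate 1.

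Sf3b5, a small structural subunit, was the most abundant of the family at 241 and 231 units on native matrix, 212 and 306 with MMP1 and 291 and 238 with MMP13. Its groups overlapped, with log2 folds of 0.11 (95% interval -0.23 to 0.45) and 0.16 (-0.18 to 0.50) against native. Sf3b2 had negative folds, with 122 and 133 units on native matrix, 104 and 99.6 with MMP1 and 129 and 77.2 with MMP13 and log2 folds of -0.32 (adjusted p = 0.762) and -0.35 (adjusted p = 0.772). The latter was 0.02 without MMP13 replicate 2, so it gives no direction. Sf3b1, the subunit that clamps the branch point helix, had a mean of 63.5 units and log2 folds of -0.11 and 0.05. Sf3a1 and Sf3a3 (means of 19.3 and 14.0 units) had positive folds against native on both matrices, with intervals that passed a 2-fold change.

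The Snrp genes took 0.119% to 0.146% of reads, and 10 of 11 were tested. Snrpn, a copy of the Sm B gene best known from brain, had 5 reads in all and had the same 6 values as Snurf, an entry of the same locus, and as 2 olfactory receptor entries. Against native, 8 of 10 genes had a positive fold on the MMP1 matrix (median log2 fold 0.32, from 0.11 without native replicate 2 to 0.40 over the 18 alternatives) and 8 of 10 on the MMP13 matrix (0.23, and -0.01 without MMP13 replicate 1). Between the MMP13 and the MMP1 matrix the median was -0.21, and 0.13 without MMP13 replicate 2. In none of the 3 comparisons did a Snrp gene pass the test.

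Snrpb, which encodes the Sm B protein, was the most abundant, with 160.5 and 149 units on native matrix, 156 and 139 with MMP1 and 137 and 118 with MMP13. Both MMP13 libraries lay below the other 4, with a log2 fold of -0.28 (95% interval -0.70 to 0.14, adjusted p = 0.804) against native. The other tested ring genes were measured at far lower levels. Their means were 38.2 units for Snrpd2, 30.9 for Snrpf, 14.5 for Snrpg, 13.2 for Snrpd1 and 12.4 for Snrpe. The ring holds its proteins in equal amounts, while these transcript levels were unequal. Pseudogene entries number 8 for Snrpg, 3 each for Snrpd2 and Snrpe, 2 each for Snrpb and Snrpf and 1 for Snrpd1. Their part in these levels was not tested. Snrpg had 8.51 and 12.8 units on native matrix, 20.4 and 20.4 with MMP1 and 9.56 and 15.1 with MMP13. Both MMP1 libraries were the highest, yet each library held between 7 and 17 reads, and the log2 fold of 0.90 had an interval of -0.22 to 2.02 (adjusted p = 0.719). Snrpf showed the same order, with 30.4 and 23.4 units on native matrix, 36.5 and 38.4 with MMP1 and 33.1 and 23.5 with MMP13 (log2 fold 0.47 on the MMP1 matrix, adjusted p = 0.785). Snrpd2 had 34.0 and 27.2 units on native matrix, 43.8 and 27.6 with MMP1 and 41.2 and 55.4 with MMP13, and its log2 fold was 0.63 on the MMP13 matrix (adjusted p = 0.691).

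The snRNP proteins outside the ring were also low. Snrpa1, of the snRNP that binds the branch point, had 13.4 and 15.8 units on native matrix, 13.1 and 24.0 with MMP1 and 23.5 and 26.9 with MMP13. Its MMP13 libraries lay above native, with a log2 fold of 0.75 (95% interval -0.23 to 1.72, adjusted p = 0.754). Snrpc, which stabilises pairing at the 5' splice site, had 31.6 and 30.2 units on native matrix, 24.8 and 40.8 with MMP1 and 49.3 and 28.5 with MMP13, and its groups overlapped, with log2 folds of 0.04 and 0.27 against native. Snrpa and Snrpb2 had means of 22.5 and 22.8 units, and their libraries overlapped in all 3 comparisons.

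A list of 141 other spliceosome and splicing genes gave a wider view, of which 130 were in the table and 118 were tested. In each of the 3 comparisons limma called 0 of 118, and 10, 18 and 6 had an unadjusted p under 0.05 (8.47%, 15.3% and 5.08%, against 8.24%, 8.05% and 5.22% of all tested genes). By edgeR 0, 1 and 0 of 95 were called, where it called 0.219%, 0.7% and 0.0437% of all genes. Its unadjusted p was under 0.05 for 8, 15 and 3 of the 95, against 433, 434 and 199 of 4574 genes. DESeq2 called 0 of 118, 1 of 17 and 0 of 118, where it called 0.00679%, 3.03% and 0.00679% of the genes it adjusted over. By DESeq2 7, 9 and 1 of 118 had an unadjusted p under 0.05, against 317, 297 and 126 of 7284 tested genes. A single call among so few genes is near the shares of genes called. The median log2 fold of these other genes was 0.00, 0.09 and 0.03.

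The gene called by both count tests was Alyref, whose protein links splicing to mRNA export. Alyref had 164 and 184 units on native matrix, 242 and 198 with MMP1 and 302 and 248.5 with MMP13. Each treated library lay above both native ones, and on the MMP13 matrix the log2 fold was 0.65 (SE 0.18, adjusted p = 0.0718 by limma, 0.0346 by edgeR and 0.0385 by DESeq2). Prpf8, the core scaffold at the catalytic centre, had 282 and 248 units on native matrix, 150.4 and 197 with MMP1 and 147 and 198 with MMP13. All 4 treated libraries of Prpf8 lay below native, with log2 folds of -0.62 (SE 0.19, adjusted p = 0.159) and -0.63 (SE 0.19, adjusted p = 0.122) by limma. Between the treated matrices the smallest p were those of Taf15 (log2 fold -1.76) and Lsm5 (-1.51), both with an adjusted p of 0.823. Taf15 had 16.1 and 18.0 units on MMP1 and 3.68 and 5.04 on the MMP13 matrix, the last being 3 reads.

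The symbol Hnrpd, an older name of Hnrnpd that the rule does not take, had 46.2 and 46.8 units on native matrix, 59.9 and 70.8 with MMP1 and 46.3 and 57.1 with MMP13. It was named after its values were seen and enters no count above.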

How the data were processed

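Per the labels' protocols, total RNA was extracted from cells lysed on the matrix, and 3' end libraries carried a random identifier of 8 bases (UMI). The deposited table holds a normalised signal for each gene: read counts after the authors' scaling by library size factors. The build was rn5 and the tools named are TopHat, DESeq and bcl2fastq, per the submitters' processing notes. How reads were counted (annotation, strand, UMI collapsing) is not given in the sources used here. Dividing by the value of 1 read gave whole reads for 100% of values, within 0.01 reads. Reads are independent molecules only if UMIs were collapsed, so limits from read numbers cover counting error alone.

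Tests took the 7284 genes that reached 5 units in 2 or more libraries, as log2(value + 1), in limma 3.58.1 (R 4.3.3) with eBayes, an intensity trend, all 6 libraries and no block. This scale understates folds of low genes. Since limma estimated infinite prior degrees of freedom, each error is that of genes of like level. Adjusted p are Benjamini-Hochberg values over all tested genes, by limma where no tool is named, and a call is an adjusted p under 0.05. EdgeR 4.0.16 (quasi-likelihood, 4574 genes) and DESeq2 1.42.0 ran on recovered reads; independent filtering in DESeq2 kept 858 genes, 17 of them members, in MMP13 against native and 14735 in the other comparisons. Scripts were tested on simulated counts.

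Members and lists were chosen with earlier results of these data known. Named are, per family, the 3 most abundant members, the 2 of smallest p per comparison, every member under an unadjusted p of 0.05, and the 2 smallest p per comparison of the other spliceosome genes; other members are given by their values or intervals to complete each family. 1 gene that this rule names is not reported here. RefSeq tables of the assembly GRCr8 matched 46 of 46 members by symbol and supplied names, overlaps and the sequences printed.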

Additional observations from a re-analysis of the deposited data

How the results depend on the processing

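With a library left out, the count of members called ran from 0 to 1 for MMP1 against native, from 0 to 1 for MMP13 against native and from 0 to 0 for MMP13 against MMP1; the single call was Hnrnpa2b1 without native replicate 2. It was 0 in every comparison under each of the other 12 alternatives: pseudocounts of 0.5 and 5, no filter, a filter of 10 in 3 libraries, TMM factors, quantile scaling, only the groups compared, no trend, identical entries once, edgeR, DESeq2 and the replicate block. Leaving out a library moved the median log2 fold of members from -0.0712 to 0.0787, from 0.0432 to 0.227 and from 0.0425 to 0.193 in these comparisons. With TMM factors it was -0.0374 for MMP1 against native, beside -0.0375 over all genes. Of the other spliceosome genes, Dhx15 was called for MMP1 against native when MMP1 replicate 1 was left out (log2 fold -2.23, adjusted p = 0.0374), beside -1.10 and 0.347 with all libraries. Alyref on the MMP13 matrix was called by edgeR and DESeq2 and not by limma; the cause was not tested. The fold of a named member changed sign in 46 of 1188 refits, none of them a call. Family medians were recomputed under the same alternatives after the main values were seen.

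Replicate numbers in the labels gave no sign of pairing, since deviations of same-numbered libraries correlated with r of 0.0059, -0.0724 and -0.0449 between groups across 7284 genes. With the replicate block the count of members called was 0 in each comparison. Depth limits the low genes, such as Snrpg with 7 to 17 reads per library, whose intervals pass a 2-fold change.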
